A study of Mus musculus with 3 samples.

Results

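Myelinating Schwann cells of the mouse cochlea were described here in 172 cells, out of 37188 that passed the filters and 39092 barcodes in all. A cell was taken as a member when it had at least 500 UMIs (unique molecular identifiers, each standing for 1 captured transcript), at least 200 genes and at most 20% mitochondrial UMIs. It also had no UMI of Ptprc, the leukocyte antigen CD45, at least 5 UMIs of Pmp22 and at least 2 UMIs of Ncmap, Prx and Mal together. The members were thus chosen by their measured counts of these genes, so the levels of those genes are given as a description only. The study prepared 3 samples of cochlea from C57BL/6J mice, each labelled as 6 animals and run as 1 droplet library of transcript 3′ ends. The control mice heard no noise. The HHL group (noise-induced hidden hearing loss) had 2 hours of noise at 110 dB, and the NIHL group (noise-induced hearing loss) had 115 dB for 4 hours on 3 days, with cochleae taken 6 hours after the last exposure. The labels give no age.

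All cells stand in 1 deposited table whose barcode suffixes, 1, 2 and 3, match no sample label. The libraries are therefore called library 1, 2 and 3, were put into no group and were not compared as control, HHL and NIHL. Each library is 1 sample, so no difference below has a replicate check or a p-value. The exact 95% intervals (Clopper-Pearson for shares of cells, Poisson for summed UMIs) cover counting error only. Levels are UMIs per 1000000 UMIs (CPM) over the summed UMIs of the cells, and a gene was called different between 2 libraries when its CPM differed at least 2-fold.

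Schwann cells are the glia of the peripheral nerve, and in the cochlea they wrap the peripheral and central processes of spiral ganglion neurons up to the point where oligodendrocytes take over. The compact sheath is held together by proteins such as myelin basic protein (Mbp) and peripheral myelin protein 22 (Pmp22), while periaxin (Prx) and dystrophin-related protein 2 (Drp2) tie its outer surface to the basal lamina. The transcription factors Sox10 and Egr2 drive the myelin programme, which axons switch on through neuregulin and its receptor Erbb3. After nerve injury the same cells can leave this state, raise Jun and Sox2 and become repair cells.

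The rule found 68 cells in library 1 (0.403% of 16883 kept cells, interval 0.313% to 0.510%), 34 in library 2 (0.354% of 9602, interval 0.245% to 0.494%) and 70 in library 3 (0.654% of 10703, interval 0.510% to 0.826%). Library 3 had the highest share of all kept cells. The intervals of libraries 1 and 2 overlapped, and those of libraries 1 and 3 overlapped at their edges. No member's barcode was seen in another library, although 50, 57 and 37 barcodes were shared between libraries 1 and 2, 1 and 3, and 2 and 3. The kept cells without Ptprc were 13.2%, 29.6% and 29.7% of all kept cells (2222, 2844 and 3178 cells), so the libraries also differed in their leukocyte share. All members are such cells, and among them library 1 had the highest share of members, above library 3. The order of the libraries thus depended on the base, and the part of the leukocyte share was not tested.

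Some of the cells that met the rule lacked the sheath genes of Schwann cells. Of the 172, 13 had fewer than 3 of 7 further sheath genes, among them Mbp, Mag, Pmp2, Cnp and Sox10, at 2 UMIs or more, and 9 of these lay in library 2. Other cells carried sheath genes together with markers of oligodendrocytes (2 cells), neurons (2 cells), fibrocytes (3 cells), neutrophils (2 cells) or erythroid cells (2 cells). The cells left out below were deep, with a median of 13469, 28257.5 and 8505 UMIs in libraries 1, 2 and 3. The 5 deepest members of each library held 40.1%, 47.2% and 31.3% of its members' UMIs. Mbp read as 5534, 2107 and 4454 CPM over all 172 cells, lowest in library 2.

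A stricter set was therefore formed after the values were seen. An unmixed cell had at least 3 of the 7 sheath genes at 2 UMIs or more, at most 10000 UMIs, and no other cell type with 2 markers at 2 UMIs each. For neutrophil and erythroid genes the limit was 5% of UMIs. This left 144 cells, 61 in library 1, 20 in library 2 and 63 in library 3, with 151469, 70083 and 233239 UMIs in all and a median of 2085, 2921.5 and 3563 UMIs per cell. Values below are for these cells unless said otherwise. Library 2 rests on few cells, of which the 5 deepest held 45.5% of the UMIs. Mitochondrial genes took a median of 10.05%, 6.02% and 5.96% of a cell's UMIs, so library 1 was the shallowest and had the highest mitochondrial share.

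**Figure D1:**
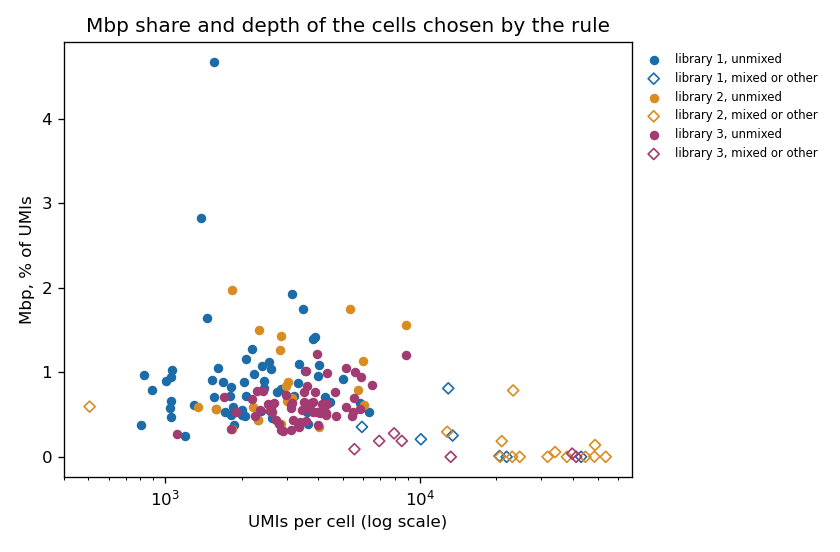
Share of UMIs from Mbp (vertical axis, percent) against UMIs per cell (horizontal axis, log scale) for the 172 cells, filled circles for the 144 unmixed cells and open diamonds for the 28 left out. The unmixed cells spend 0.251% to 4.67% of their UMIs on Mbp, and most of the left-out cells lie to the right, with at most 0.811%.

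The unmixed cells bore the label. Mbp had a UMI in every one of them, and Cnp, the 2′,3′-cyclic nucleotide phosphodiesterase of myelin, in 58 of 61, 20 of 20 and 63 of 63. Egr2 had a UMI in 36 of 61, 19 of 20 and 45 of 63 cells, and Sox10 in 33 of 61, 8 of 20 and 46 of 63. Oligodendrocyte genes were at or near 0: Mog, Opalin, Ermn, Hapln2, Olig2 and Nkx6-2 had no UMI in any library. The summed CPM of all 11 oligodendrocyte markers, which include Sox10, was 449, 442 and 437. Ngfr and L1cam, which mark non-myelinating and repair Schwann cells, had no UMI either. They belong to a list of 9 markers of non-myelinating Schwann cells or satellite glia, of which others were present. In libraries 1, 2 and 3, 4, 5 and 2 of the 9 had no UMI, and the list summed to 304, 457 and 232 CPM. The 11 spiral ganglion neuron genes summed to 0, 14.3 and 4.29 CPM. The fibroblast markers summed to 1142, 985 and 896 CPM, nearly all of it Col1a2 with 1043, 942 and 802 CPM, while Lum and Pdgfra had no UMI.

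Blood cell RNA was the main foreign signal. The 7 neutrophil markers summed to 4813, 3125 and 4943 CPM, and S100a8, a neutrophil calgranulin, had a UMI in all 144 cells. The 6 erythroid genes summed to 158, 3439 and 1788 CPM, far lower in library 1 than in the others. To read other genes against this background, the level that free RNA would give was computed. Each gene's level over all kept cells was scaled by the S100a8 level in the Schwann cells. This takes free RNA to have the mix of all kept cells, so RNA freed in another mix is not covered. For Mbp this free level was 3.17, 2.95 and 4.05 CPM.

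The thresholds passed through a thin edge in most places. With the rest of the rule met, 8 members had 5 or 6 UMIs of Pmp22 and 18 cells had 3 or 4. The bar on Ptprc cost more cells: 28, 17 and 20 cells met all else with at least 1 UMI of Ptprc, and 25, 13 and 20 of them carried 3 sheath genes. These cells were deep, with a median of 15317.5, 11095 and 10205.5 UMIs. A count of members is therefore a count of Ptprc-free cells that met the rule, including those left out of the unmixed set. Whether the cells with Ptprc were Schwann cells or mixed barcodes was not tested.

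The sheath genes made up a large part of the transcriptome of these cells, and those with enough UMIs to be called differed less than 2-fold between libraries. Mbp, which seals the cytoplasmic faces of compact myelin, stood at 9005 CPM in library 1 (interval 8534 to 9496), 9903 in library 2 (9179 to 10668) and 6500 in library 3 (6177 to 6835). Cnp stood at 1591, 1627 and 2195 CPM. Mbp was lowest in library 3, but by less than 1.5-fold against library 1, and Cnp was highest there.

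The same held for the sheath list, for which the genes of the rule were left out. Of its 20 genes, 16 had enough UMIs to be called in each pair of libraries and none passed 2-fold. Over the 17 genes with at least 20 UMIs the median log2 ratio was 0.11 for library 2 over 1, -0.17 for 3 over 1 and -0.26 for 3 over 2, beside 0.11, 0.04 and 0.00 over all 3764 genes with at least 20 UMIs. Per cell the list summed to a median of 73292, 67882 and 59379 CPM, and single cells ranged from 29201 to 122279 CPM. Over all 172 cells the list was lower in library 2 than in library 1 by 1.36 on the log2 scale, with 10 of 17 genes past 2-fold (9.22% of all genes).

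Among all genes with at least 50 UMIs and 50 CPM, 1526 to 1529 could be called in the unmixed cells. Library 2 was higher than library 1 for 6.68% of them and lower for 4.72%. Library 3 was higher than library 1 for 6.02% and lower for 3.73%, and higher than library 2 for 6.21% and lower for 4.12%. Over all 172 cells the shares were larger for library 2 over 1, at 11.6% higher and 9.22% lower, and for 3 over 2, at 10.2% higher and 10.9% lower. For library 3 over 1 they were 6.64% and 5.32%. The counts of members of a list are read against these shares. The 50 UMIs were summed over all libraries. A gene that reached them only through the library where it was high could hardly be called in the other direction.

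The genes with the highest levels in the unmixed cells, and those with the largest ratios to other Ptprc-free cells, are given as a description, since the rule used the same counts. After mitochondrial, ribosomal and rule genes, the highest levels included those of Malat1, Gm42418, Fth1, Mbp, Ndrg1, Cd9, Tmsb4x and Scd2. Malat1, a nuclear long non-coding RNA, stood at 62297, 45204 and 58734 CPM. Gm42418, which overlaps a ribosomal RNA locus, stood at 19601, 6193 and 16695 CPM, the lowest in library 2. Ndrg1, whose loss causes a demyelinating neuropathy, stood at 5051, 4381 and 3473 CPM. Scd2, a stearoyl-CoA desaturase of myelin lipids, stood at 4727, 4109 and 2787 CPM.

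The largest ratios to the other Ptprc-free cells outside the rule included those of Cldn19, Fam178b, Drp2, Dusp15, Kcna1, Ugt8a, Pllp, Mt3, Art3, Gjc3, Kcna2 and Gldn. Cldn19, the claudin of the junctions within the sheath, stood at 541, 699 and 780 CPM. Drp2 stood at 838, 856 and 905 CPM, and Gjc3, the connexin of the inner sheath, at 805, 713 and 913 CPM. Potassium channel subunits were prominent: Kcna1 stood at 2165, 1270 and 2007 CPM and Kcna2 at 891, 542 and 519 CPM. Gldn, the gliomedin that gathers sodium channels at nodes of Ranvier, stood at 667, 614 and 454 CPM.

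Lists for the cell's axon contacts and myelin lipids held few calls. Of the node and paranode list 10 genes could be called, and Cadm3, a cell adhesion molecule of the internode, was the single one past 2-fold. It stood at 251, 271 and 111 CPM, so library 3 was 2.25-fold lower than library 1 (interval 1.33 to 3.86). Of the 11 axon signal and laminin receptor genes, Erbb3, the neuregulin receptor, was called, at 224, 99.9 and 223 CPM from 34, 7 and 52 UMIs. Of the 12 cholesterol synthesis genes Cyp51 alone was called, at 211, 143 and 292 CPM, past 2-fold for library 3 over 2. Hmgcs1, the enzyme that makes HMG-CoA, stood at 964, 1042 and 1016 CPM, within 2-fold. Of the 14 fatty acid and sphingolipid genes, Elovl7 (218, 99.9 and 81.5 CPM) and Elovl1 (158, 314 and 154 CPM), both fatty acid elongases, were called.

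Transcription factors of the lineage were at similar levels, with 1 exception. Egr2 stood at 515, 842 and 557 CPM and Sox10 at 310, 214 and 317 CPM. Pou3f1, the factor Oct-6 of the promyelinating stage, stood at 416, 271 and 755 CPM. Library 3 was 2.78-fold higher than library 2 (interval 1.73 to 4.73) and 1.81-fold higher than library 1 (1.35 to 2.46), and it was the 1 called gene of 10 in that list.

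Of the lists, that of immediate-early genes had the most genes higher in library 3. Of 15 that could be called, 10 were at least 2-fold higher in library 3 than in library 1 and none was lower, beside the 6.02% of all genes. They were Fos, Fosb, Junb, Jund, Egr1, Btg2, Klf2, Klf4, Nr4a1 and Zfp36, which encode AP-1 subunits, zinc finger factors and regulators of transcription and mRNA decay that cells switch on within minutes. The median log2 ratio of the 19 measured genes was 1.45 for library 3 over 1, 0.71 for 2 over 1 and 0.69 for 3 over 2. Library 2 therefore lay between the others, with 5 genes past 2-fold over library 1 (6.68% of all genes) and 2 below library 3 (6.21% of all genes). With 3 further sheath genes as the sole added criterion, the median for 2 over 1 was -0.38, so the place of library 2 depended on the choice of cells.

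Fos stood at 1089 CPM in library 1 (interval 929 to 1269), 2526 in library 2 (2167 to 2926) and 4665 in library 3 (4392 to 4950). Library 3 was 4.28-fold higher than library 1 (interval 3.63 to 5.08). Klf2 stood at 158, 514 and 827 CPM, and Klf4 at 52.8, 271 and 484 CPM from 8, 19 and 113 UMIs. For these 3 genes the intervals of libraries 1 and 3 did not overlap. Egr1 stood at 792, 1013 and 1724 CPM, and Junb at 449, 785 and 1226 CPM. Jund stood at 462, 499 and 1243 CPM, so for this gene library 2 was near library 1. In library 2 a single cell gave 52.6% of the Klf4 UMIs and 25% of the Klf2 UMIs.

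The difference was spread over most cells. Per cell the summed CPM of the list had a median of 3619 in library 1, 7177 in library 2 and 13191 in library 3, and the lower quartile of library 3 (6376) lay above the median of library 1. Fos had a UMI in 59.0%, 75% and 95.2% of the cells. When every cell with at least 1000 UMIs was thinned to that depth, the shares were 46.5%, 60.9% and 86.0%, which left out 3 cells, all in library 1. The S100a8-scaled level of free RNA was 125, 148 and 263 CPM for the list, against 5387, 9860 and 15306 CPM measured. A part of RNA freed in another mix was not tested. The higher mitochondrial share and lower depth of library 1 moved with the difference, and their part in it was not tested. Among cells with at most 10% mitochondrial UMIs the median log2 ratio of library 3 over 1 was 1.27, and among cells with at least 1500 UMIs it was 1.40.

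Other cells of the same libraries did not show the same sizes. In fibrocytes (519 cells with at least 5 UMIs of Coch and 2 of Otos, Otor and Cldn11) the immediate-early list summed to 14027, 16634 and 19107 CPM. In endothelial cells (354 cells with at least 3 UMIs of Cldn5, Cdh5 and Flt1, of which 65 also counted as fibrocytes) it summed to 13343, 13395 and 17176 CPM. In melanocytic cells (67 cells) it summed to 6004, 4163 and 2839 CPM, the opposite order. The median log2 ratio of library 3 over 1 was 0.39, 0.21 and -1.25 in these classes, against 1.45 in the Schwann cells. In library 1 the Schwann cells lay far below fibrocytes and endothelial cells, and in library 3 near them. Glial-gene cells outside the rule (68 cells) had 17718, 6378 and 7575 CPM, and only 15 of them were in library 3.

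**Figure D2:**
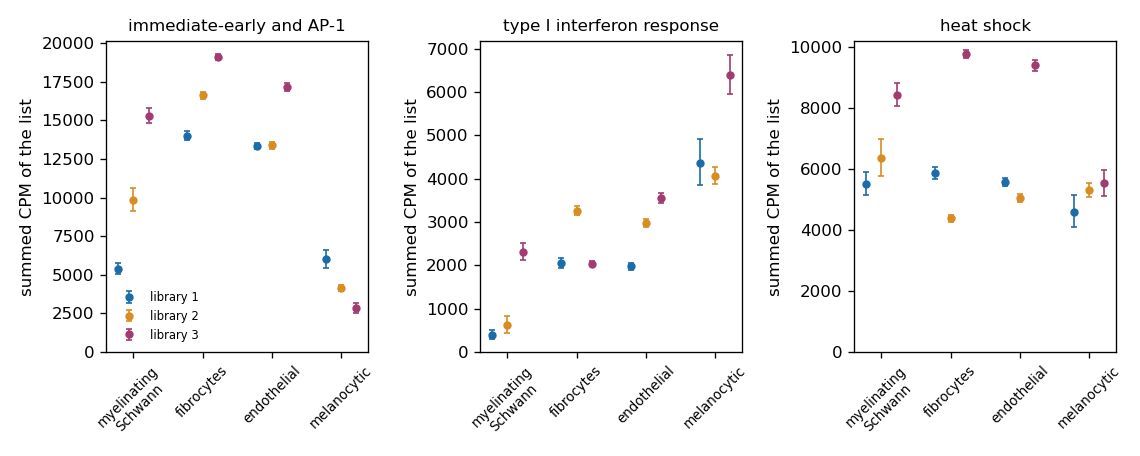
Summed CPM of 3 gene lists (vertical axes, from 0) in unmixed myelinating Schwann cells and 3 other Ptprc-free classes, by library, with exact Poisson 95% intervals that cover counting error only. In the Schwann cells the immediate-early list stands at 5387, 9860 and 15306 and the interferon list at 390, 614 and 2307.

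Of the feedback regulators, Socs3 and Nfkbia were also higher in library 3. Socs3, the cytokine signalling suppressor, stood at 165, 342 and 592 CPM, and Nfkbia, the inhibitor of NF-kB, at 132, 200 and 322 CPM. Both passed 2-fold for library 3 over 1, as 2 of the 3 genes of their list that could be called (6.02% of all genes). The median log2 ratio of that list was 0.38 for library 3 over 1. In library 2 a single cell gave 54.2% of the Socs3 UMIs. The metallothionein gene Mt1 stood at 1895, 2411 and 4806 CPM, 2.54-fold higher in library 3 than in library 1 (interval 2.23 to 2.90). Mt2 stood at 885, 713 and 1226 CPM and Mt3, the form found in glia and neurons, at 1961, 2511 and 2482 CPM, both within 2-fold.

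In 3 other classes Mt1 was lowest in library 3: it stood at 1339, 1210 and 585 CPM in fibrocytes, 932, 826 and 444 CPM in endothelial cells and 1655, 1686 and 598 CPM in melanocytic cells. The other glial-gene cells had 285, 269 and 440 CPM, highest in library 3 as in the Schwann cells, from 23 UMIs there. Sod1, the copper-zinc superoxide dismutase, was lower in library 3, at 211, 171 and 81.5 CPM.

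Heat shock genes were higher in library 3 by a smaller step. The list of 18 genes summed to 5499, 6350 and 8425 CPM, and its median log2 ratio was 0.65 for library 3 over 1 and 0.64 for 3 over 2. Of 8 genes that could be called, Hspa8 and Hspe1 passed 2-fold over library 1 (6.02% of all genes). Hspe1, Hspd1 and Dnaja1 passed it over library 2 (6.21% of all genes). For Hspe1 the log2 ratio of library 3 over 2 turned to -0.13 over all 172 cells and to -0.76 with 3 further sheath genes as the sole added criterion. Hspa8, a constitutive chaperone, stood at 442, 514 and 930 CPM, and Hspe1, the mitochondrial co-chaperonin, at 106, 85.6 and 236 CPM. The inducible chaperone gene Hspa1a had 3, 0 and 43 UMIs. Fibrocytes (5858, 4378 and 9762 CPM) and endothelial cells (5572, 5051 and 9399 CPM) also had their highest level in library 3. Melanocytic cells differed little (4601, 5315 and 5528 CPM), and the other glial-gene cells had their lowest level in library 3 (8681, 7751 and 5643 CPM).

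Interferon-induced genes were higher in library 3 than in library 1. Isg15, a ubiquitin-like modifier, stood at 46.2 CPM in library 1, 114 in library 2 and 493 in library 3, from 7, 8 and 115 UMIs. Ifit1, which binds foreign capped RNA, had 2, 1 and 57 UMIs, or 13.2, 14.3 and 244 CPM. Ifit3, its partner, had 1, 2 and 57 UMIs. Bst2, the tetherin that holds budding virus at the membrane, had 3, 1 and 46 UMIs. All 5 genes of the list that could be called were at least 2-fold higher in library 3 than in library 1 (6.02% of all genes). The same 5 were higher in library 3 than in library 2 (6.21% of all genes). Isg15, Ifit1, Ifit3 and Bst2 reached the limit of 50 UMIs only through library 3, and the last 3 of these also that of 50 CPM. The filter therefore largely fixed the direction of their calls, and the count of 5 is a description only. For library 2 over 1 only 2 genes of the list could be called. The median log2 ratio of the 10 measured genes was 2.44 for library 3 over 1, 1.11 for 2 over 1 and 1.52 for 3 over 2. With 3 further sheath genes as the sole added criterion the median for 2 over 1 turned to -1.08, and with no filter on low counts that for 3 over 2 was 0.34.

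These UMIs were held by a minority of the cells. Ifit1 lay in 5 of 63 cells of library 3, and 1 cell gave 27 of its 57 UMIs. Isg15 lay in 16 of 63 cells and Bst2 in 18. The cell with the highest share of the list had 108 interferon UMIs of its 4198, or 2.57%, and also 26 Mbp UMIs. Without this cell Isg15 stood at 406 CPM, Ifit1 at 183 CPM and Ifit3 at 157 CPM in library 3. Per cell the list had a median of 171, 300 and 701 CPM, and a UMI of the list was found in 31 of 61, 11 of 20 and 51 of 63 cells. After thinning to 1000 UMIs the shares were 32.9%, 32.9% and 52.4%.

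Ifitm3, an interferon-induced membrane protein outside the list, stood at 52.8, 99.9 and 377 CPM. Its log2 ratio turned to -0.30 for library 3 over 1 with 3 further sheath genes as the sole added criterion, and to -0.38 for 3 over 2 over all 172 cells. The free RNA level of Ifitm3 was 27.2, 36.8 and 135 CPM. For Isg15 the free level was 1.33, 3.28 and 16.6 CPM, and for the whole list 36.9, 44.1 and 184 CPM against 390, 614 and 2307 measured. H2-D1, an MHC class I gene, stood at 92.4, 57.1 and 214 CPM with a free level of 30.5, 32.6 and 65.0 CPM, and over all 172 cells its log2 ratio of library 3 over 1 was -0.13. The list of interferon GTPases and MHC class I genes had a median log2 ratio of 1.84 for library 3 over 1, with 1 of 3 genes called. Among cells with at most 10% mitochondrial UMIs the interferon list's median was 1.49, and over all 172 cells it was 1.12.

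Fibrocytes had an interferon list level of 2056, 3264 and 2042 CPM, with the highest in library 2. Endothelial cells had 1979, 2974 and 3553 CPM and melanocytic cells 4365, 4073 and 6393 CPM, although the median log2 ratio of library 3 over 1 was -0.41 in the melanocytic cells. The other glial-gene cells had 1639, 384 and 2907 CPM, with a median log2 ratio of 1.33 for library 3 over 1 and 3.35 for 3 over 2, from 15 cells in library 3. In libraries 1 and 2 the Schwann cells were below the fibrocytes, endothelial cells and melanocytic cells, and the endothelial cells had the same order of libraries with smaller steps.

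The 3 genes with high ratios whose promoters are known targets of interferon-stimulated gene factor 3 are shown because this factor binds an element made of repeated GAAA blocks. The sequences are the 250 bases before the RefSeq start of each gene in GRCm38.p6, 5′ to 3′ on the gene's strand. The counts were made on GRCm39, so these coordinates belong to the reference only. Capitals mark matches to GAAANNGAAA or its reverse complement TTTCNNTTTC, and overlapping matches were merged.
Ifit1, chr19:34640639-34640888, plus strand: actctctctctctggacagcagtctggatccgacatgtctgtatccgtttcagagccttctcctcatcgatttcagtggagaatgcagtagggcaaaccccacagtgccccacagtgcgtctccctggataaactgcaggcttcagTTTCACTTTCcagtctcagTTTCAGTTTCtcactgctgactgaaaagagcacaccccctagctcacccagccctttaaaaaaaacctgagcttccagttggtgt
Ifit3, chr19:34583279-34583528, plus strand: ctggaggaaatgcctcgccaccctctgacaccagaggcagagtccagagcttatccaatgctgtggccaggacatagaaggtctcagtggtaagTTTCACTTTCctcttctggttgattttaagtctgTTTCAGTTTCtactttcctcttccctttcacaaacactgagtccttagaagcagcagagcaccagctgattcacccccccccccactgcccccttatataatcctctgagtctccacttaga
Isg15, chr4:156200819-156201068, minus strand: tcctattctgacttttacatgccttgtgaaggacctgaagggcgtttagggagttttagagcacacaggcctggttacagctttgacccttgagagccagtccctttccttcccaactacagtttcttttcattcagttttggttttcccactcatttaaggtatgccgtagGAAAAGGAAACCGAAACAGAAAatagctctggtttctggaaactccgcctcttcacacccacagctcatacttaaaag

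Ifit1 held 2 matches, starting 104 and 85 bases before the start site, and Ifit3 held 2, at 156 and 122 bases. Isg15 held 3 overlapping matches, at 78, 72 and 66 bases. Of the 24 genes of the interferon list 17 had a promoter window in the table, and 8 of these held a match. Over all 27025 genes with such a window 3.46% held one. A match is a description of the sequence, and no binding was measured.

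A second group was lowest in library 3. Cntf, the ciliary neurotrophic factor that myelinating Schwann cells store for neurons, stood at 766 CPM in library 1 (interval 633 to 919), 457 in library 2 (312 to 645) and 232 in library 3 (174 to 302). Library 3 was 3.31-fold lower than library 1 (interval 2.38 to 4.66). Cntf had a UMI in 55.7%, 55.0% and 39.7% of the cells and, thinned to 1000 UMIs, in 40.4%, 29.4% and 17.2%. In fibrocytes, endothelial and melanocytic cells it was at 2 CPM or less in every library.

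Otop1, a proton channel known from the vestibular organ, stood at 436, 599 and 120 CPM, which is 3.63-fold lower in library 3 than in library 1 (interval 2.30 to 5.87). It had no UMI in fibrocytes, endothelial, melanocytic or other glial-gene cells. Sptbn5, a beta spectrin, stood at 205, 228 and 21.4 CPM from 31, 16 and 5 UMIs, and library 3 was 9.55-fold lower than library 1 (interval 3.68 to 31.4). Chst2, a sulfotransferase of cell surface sugars, stood at 271, 228 and 64.3 CPM. For these 3 genes libraries 1 and 2 were within 2-fold of each other and library 3 was lowest. The log2 ratio of Chst2 for library 3 over 2 turned to 0.30 over all 172 cells.

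Igfbp6, a binding protein of insulin-like growth factors, stood at 541, 357 and 51.4 CPM. Itm2a, a small membrane protein, stood at 541, 813 and 232 CPM, lower in library 3 than in both others. Spp1, the secreted phosphoprotein osteopontin, had 42, 21 and 3 UMIs, or 277, 300 and 12.9 CPM, and 1 cell gave 81.0% of those in library 2. Its free RNA level in library 3 was 13.6 CPM. Over all 172 cells Spp1 was higher in library 3 than in library 1, at 516 against 247 CPM. Igfbp5 (244, 114 and 60.0 CPM) and Clmn (205, 157 and 51.4 CPM) completed the 8 genes with the largest ratios in this direction. With 3 further sheath genes as the sole added criterion, the log2 ratio of Igfbp5 for library 3 over 1 was 0.71, the opposite sign. Free RNA levels of Cntf, Otop1, Chst2 and Itm2a were under 1 CPM in every library.

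**Figure D3:**
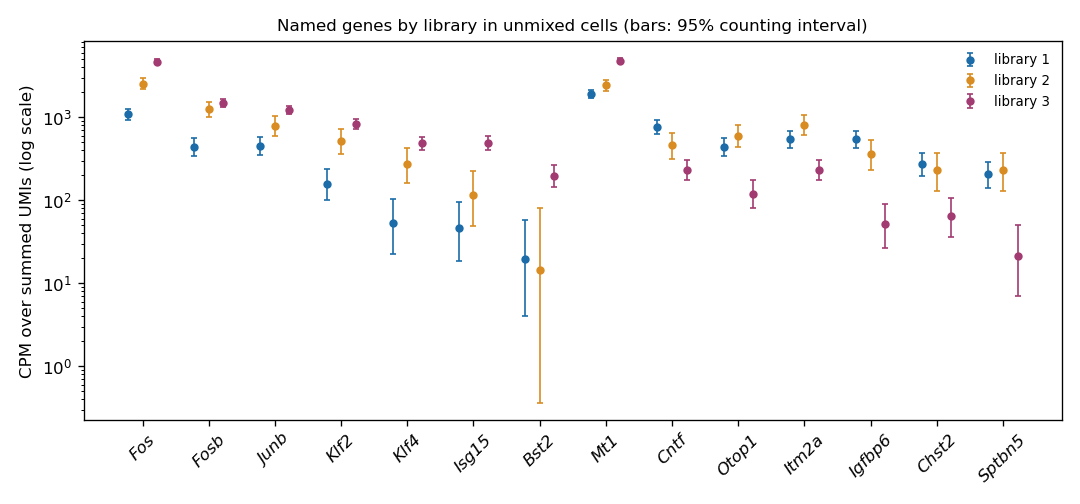
CPM (log scale) of 14 named genes in the unmixed cells by library, with exact Poisson 95% intervals that cover counting error only. The 8 genes on the left are highest in library 3, from Fos (1089, 2526 and 4665) to Mt1, and the 6 on the right are lowest there, as for Cntf (766, 457 and 232).

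Library 2 differed from the others in a further set of genes, though on 20 cells. Besides Klf4 and Klf2, the largest ratios over library 1 were those of Fmc1, Atox1, Tmem258, Atp5j2, Myl12a and Cops9. Fmc1, an assembly factor of ATP synthase, had 6, 17 and 28 UMIs, or 39.6, 243 and 120 CPM. Atox1, a copper chaperone, stood at 72.6, 300 and 141 CPM. Atp5j2, an ATP synthase subunit, stood at 145, 514 and 279 CPM. Library 3 was between the others for these 3 short housekeeping transcripts.

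Lower in library 2 were Arhgap31, Ube3a, Eif4b, Kcnq1ot1, Ranbp2, mt-Atp8, Txnip and Lcn2, which had 2 to 5 UMIs there. Ube3a, a ubiquitin ligase, stood at 211, 42.8 and 193 CPM, and Kcnq1ot1, a nuclear non-coding RNA, at 323, 71.3 and 236 CPM. Bod1l, Mpo and Prtn3 were among the 8 genes highest in library 3 relative to library 2. Mpo and Prtn3 are granule genes of myeloid cells, with 232 and 283 CPM in library 3 and a free RNA level of 61.8 and 137 CPM. Cirbp, a cold-inducible RNA-binding protein, stood at 132, 328 and 64.3 CPM and Nr2f2, a nuclear receptor, at 165, 357 and 103 CPM, both highest in library 2.

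Most genes of the repair state had few UMIs, with Jun as an exception. Of 26 in the list 7 had at least 20 UMIs and 4 could be called. Jun stood at 297, 599 and 592 CPM, and Sox2, a factor of immature Schwann cells, at 59.4, 71.3 and 184 CPM from 9, 5 and 43 UMIs. Sox2 was 3.10-fold higher in library 3 than in library 1 (interval 1.49 to 7.24). Ngfr, Gap43 and L1cam, which repair cells carry, had no UMI, and the floor of 3 counts over a library's cells stands at 19.8, 42.8 and 12.9 CPM. The list's median log2 ratio was 0.99 for library 3 over 1 in the unmixed cells and -0.44 over all 172 cells.

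The remaining lists held few calls. Of 12 ion handling genes Fxyd1, a regulator of the sodium pump, was called, at 290, 671 and 609 CPM, higher in libraries 2 and 3 than in library 1. Of 8 glucocorticoid and clock genes, Per1 was higher in library 3 (66.0, 42.8 and 163 CPM) and Errfi1 in library 2 (99.0, 200 and 129 CPM). Of 9 inherited neuropathy genes Litaf was called, lower in library 2 from 22, 5 and 24 UMIs. Of 5 endoplasmic reticulum stress genes Calr was called, at 297, 157 and 334 CPM. Of 4 trophic factor genes Cntf was the one called, and of 2 non-myelinating glia genes Sostdc1, higher in library 2 than in library 1. None of 4 genes of p53 and cell death, and not the 1 testable chemokine gene, was called in any pair.

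**Figure D4:**
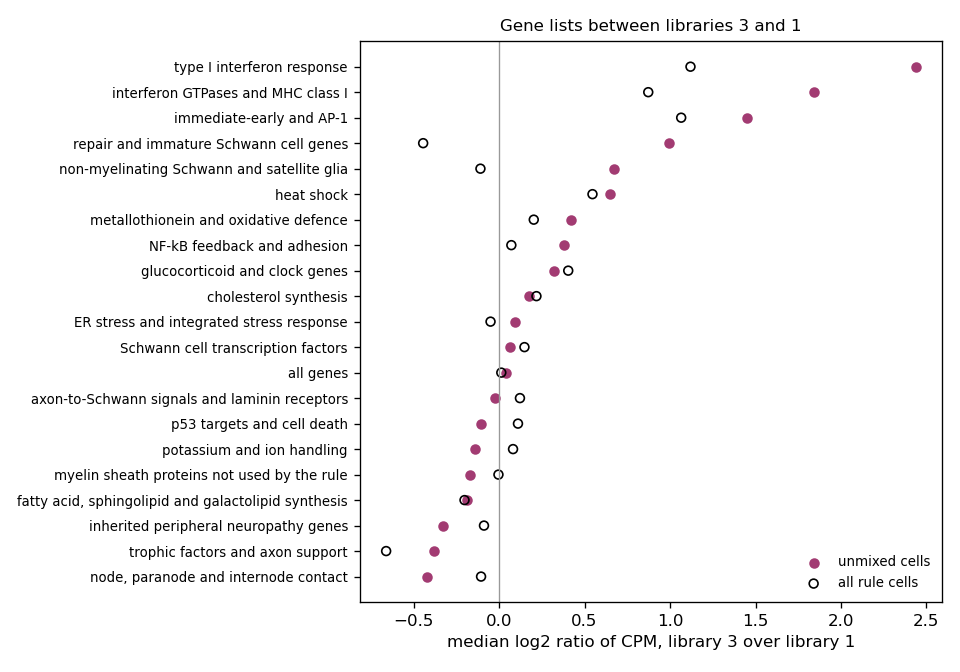
Median log2 ratio of CPM in library 3 over library 1 (horizontal axis) for the gene lists with at least 3 measured genes, filled points for unmixed cells and open points for all 172 cells. The interferon, MHC class I and immediate-early lists stand highest in both, at 2.44, 1.84 and 1.45 in unmixed cells, while the repair list is at 0.99 and -0.44.

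Within a library the same immediate-early and metallothionein genes also varied most between cells. The squared deviation of each cell's count from the count its depth predicts was divided by that prediction, so that counting error alone gives 1. The median over 710 genes was 1.17 in library 1 and 1.19 in library 3. Fos had 6.90, 5.46 and 13.7 in libraries 1, 2 and 3, Egr1 7.64, 5.12 and 6.78, and Mt1 4.43, 3.47 and 11.2. Malat1 was the most variable, with 41.4, 35.1 and 28.9. Of the sheath genes, Mbp had 8.40, 8.08 and 2.91. Cells of a library thus differed in immediate-early genes well beyond counting error, and the ranges of the libraries overlapped.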

How the data were processed

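Counts of UMIs per gene and cell barcode were deposited by the authors in 1 table, written by Cell Ranger 7.1.0 per the file headers, on genome build GRCm39 per the submitters' processing notes. How cells were called and libraries joined is not stated there. From these counts, kept cells were summed per library (kept totals of 131084591, 92188324 and 144942023 UMIs) and scaled to CPM. Scrublet (expected rate 6%) called 2, 0 and 2 of the 172 members and none of the 144 unmixed cells, and kept-cell calls were 5.63%, 4.69% and 4.73%. Ratios were tested on simulated counts with known folds.

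The members and lists were chosen with earlier results of these data known. Genes were named by these rules: markers, up to 5 per list (3 by level, 2 by ratio), the 8 largest ratios per pair and direction, the 10 highest levels, and the 15 largest ratios to other Ptprc-free cells. Cadm3, Elovl1, Elovl7, Errfi1, Hspe1, Hspd1, Dnaja1, Junb, Jund, Nr4a1, Zfp36, Sox2, Litaf and the per-list calls fall outside these rules and were chosen after their values were seen, as was the definition of an unmixed cell. A zero was set to 3 counts per library in ratios. List medians used genes with at least 20 UMIs, and 23 lists were examined. 3′ counts do not scale with transcript length. TMM factors came from edgeR 4.0.16 in R 4.3.3, and all else from Python 3.11.15 with numpy 2.4.6, pandas 2.3.3, scipy 1.17.1, scanpy 1.11.5 and matplotlib 3.10.9. Some genes of these lists and criteria are not reported here. Alternatives are in the closing section.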

Additional observations from a re-analysis of the deposited data

How the results depend on the processing

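Counts of genes past 2-fold depended on which cells were summed. Over all 172 cells they were 457 higher and 362 lower (library 2 over 1), 251 and 201 (3 over 1), and 400 and 427 (3 over 2). Over unmixed cells, a set chosen after seeing the data, they were 102, 72, 92, 57, 95 and 63, and with no filter on low counts 1426, 1252, 936, 1061, 1218 and 1473, in the same order. With 3 further sheath genes required, 124 genes were lower for 3 over 1, and 223 were higher and 180 lower for 3 over 2. The mean of per-cell CPM gave 251 higher for 3 over 2. Lists past 1.5-fold were 5 for 3 over 1 and 10 for 3 over 2, but 2 and 6 with no filter, and 5 for 3 over 2 in unmixed cells. The share of members was 0.229% in library 1 with at most 10% mitochondrial UMIs and 0.208% in library 2 over unmixed cells. The cause was not tested in any of these.

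Of 126 gene ratios past 2-fold in unmixed cells, 60 stayed past 2-fold in the same direction over all 172 cells, 50 fell short and 16 took the opposite sign. With 3 sheath genes required the numbers were 74, 38 and 14. Over all 172 cells, log2 gene ratios that took the opposite sign were Bst2 (2 over 1) -0.72, Cadm3 (3 over 2) 0.79, Calr (3 over 2) -0.50, Chst2 (3 over 2) 0.30, Dusp15 (3 over 2) 0.84, Elovl1 (3 over 2) 0.38, H2-D1 (3 over 1) -0.13, Hspe1 (3 over 2) -0.13, Ifitm3 (3 over 2) -0.38, Klf2 (2 over 1) -0.20, Pmp2 (3 over 2) 0.48, Prtn3 (3 over 1) -0.98, Sostdc1 (2 over 1) -0.55, Spp1 (3 over 1) 1.06, Txnip (2 over 1) 0.30 and Txnip (3 over 2) -0.38. Over all 172 cells, list medians that took the opposite sign were interferon GTPases and MHC class I (2 over 1) -0.12, non-myelinating Schwann and satellite glia (2 over 1) -0.12, non-myelinating Schwann and satellite glia (3 over 1) -0.11 and repair and immature Schwann cell genes (3 over 1) -0.44. Over the 159 cells with at least 3 further sheath genes, log2 gene ratios that took the opposite sign were Bst2 (2 over 1) -2.43, H2-D1 (3 over 2) -0.055, Hspe1 (3 over 2) -0.76, Ifit3 (2 over 1) -0.46, Ifitm3 (3 over 1) -0.30, Igfbp5 (2 over 1) 1.01, Igfbp5 (3 over 1) 0.71, Isg15 (2 over 1) -1.24, Jun (2 over 1) -0.38, Klf2 (2 over 1) -0.29, Nr2f2 (2 over 1) -0.021, Ranbp2 (3 over 2) -0.057, Socs3 (2 over 1) -0.14 and Spp1 (3 over 1) 0.77. Over the 159 cells with at least 3 further sheath genes, list medians that took the opposite sign were immediate-early and AP-1 (2 over 1) -0.38, interferon GTPases and MHC class I (2 over 1) -0.19, non-myelinating Schwann and satellite glia (2 over 1) -0.084, non-myelinating Schwann and satellite glia (3 over 1) -0.56, repair and immature Schwann cell genes (3 over 1) -0.34 and type I interferon response (2 over 1) -1.08. With at most 10% mitochondrial UMIs, log2 gene ratios that took the opposite sign were Igfbp5 (2 over 1) 0.89. With no filter on low counts, list medians that took the opposite sign were NF-kB feedback and adhesion (3 over 2) -1.0 and non-myelinating Schwann and satellite glia (3 over 1) -0.30. TMM factors moved every log2 ratio by -0.12, 0.07 and 0.19 (2 over 1, 3 over 1, 3 over 2), and turned no sign among the called values. No paired analysis was possible because the libraries cannot be tied to the labelled samples and each is 1 sample. Leaving out a replicate was not run, since each library is 1 sample.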
